A study of Mus musculus with 12 samples.

Results

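The genes that copy chromosomal DNA were followed in T cells from the spleens of mice infused with angiotensin II and of control mice. The 49 genes were chosen by name, as the genes of origin licensing, the replicative helicase, the clamp and its loader, the polymerases, deoxynucleotide supply and the copying of methylation and chromatin. Each name matched 1 of the 49315 rows of the deposited gene table, and the 49 genes lay on 16 chromosomes of the mouse genome GRCm38. RNASeq had been performed on 12 libraries, 3 from each of 4 groups, and the paper describes its replicates as independent mice. WT sham and miR-214-/- sham mice received the vehicle of angiotensin II (Ang II), a peptide that raises blood pressure, from osmotic minipumps, and WT Ang II and miR-214-/- Ang II mice received Ang II at 490 ng/kg per day, in all cases for 14 days. All mice were males, 12 weeks old when the infusion began, and the miR-214-/- mice lacked the microRNA in every cell, not in T cells alone. T cells were enriched from spleen by magnetic negative selection, which removes labelled cells of other types and leaves any cell that carries no label. The deletion itself could not be checked, because the libraries were made from poly(A) RNA and the row of the microRNA gene held 0 counts in all 12 libraries together.

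DNA replication starts when the origin recognition complex, CDC6 and CDT1 load the ring-shaped MCM helicase onto DNA in G1. In S phase the kinases CDK and CDC7-DBF4 bring CDC45 and GINS to the ring and the helicase starts to unwind DNA. Polymerase alpha-primase then lays down primers, polymerases epsilon and delta extend them on a PCNA clamp that the RFC complex loads, and FEN1 and LIG1 join the fragments of the lagging strand. Most resting T cells of the spleen are in G0 and hold little of the machinery, whereas T cells that have met antigen, and precursors of blood cells, copy their DNA. Many of these genes are targets of E2F transcription factors, which are held in check by the retinoblastoma family in resting cells.

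Total counts per library lay between 21126874 and 29605988, and the 49 genes took 0.205% to 0.495% of them. Among these genes the lowest count in a library was 67 (Gins2) and the highest 9588 (Dnmt1), and all 49 genes passed the filter on low counts in every comparison. Levels are given as CPM, the count of a gene relative to a library size corrected by TMM. The T cell list was expressed in every library, and all 15 of its genes were above 0, with a sum of 6096 to 7093 CPM in WT sham and 4136 to 4921 CPM in WT Ang II, and for miR-214-/- mice 5643 to 6583 CPM without and 4656 to 6248 CPM with Ang II. Markers of other blood cells were present too, and their values follow the results. Among the miR-214-/- Ang II libraries, replicate 1 stood apart from replicates 2 and 3 for the replication genes. In the same group replicate 2 stood apart for haemoglobin, neutrophil and B cell genes. Medians and counts of calls of the replication genes are given with and without replicate 1. Ang II against sham in WT and miR-214-/- against WT in sham share the 3 WT sham libraries, and each comparison between groups shares 3 libraries with each of 2 others, so they are not independent.

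The replication genes rose with Ang II in WT mice. Of the 49 genes, 27 were called higher, which means a log2 fold change over 1 and, in the quasi-likelihood test of edgeR, a p under 0.05 after Benjamini-Hochberg adjustment over all genes, against 7.01% of the 16012 genes tested. No member was called lower. At an adjusted p under 0.05 alone 42 members were higher, against 11.7% of all genes, and in 46 members every WT Ang II library lay above every WT sham library, against 19.1% of all genes. All 49 log2 fold changes were positive, with a median of 1.17 and a range of 0.06 to 2.88, beside a median of -0.02 over all genes tested. The 7 members with a larger adjusted p were Gins3, Orc2, Orc6, Cdc7, Rpa1, Pold1 and Pold2. The libraries of Rpa1, Pold1 and Pold2 overlapped between the groups. In bulk RNA, more cells of a type and more RNA per cell cannot be told apart, and the same holds for every lower value given here.

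Averaged over the 49 genes, log2 CPM was 4.67, 4.91 and 4.86 in WT sham and 5.60, 6.13 and 6.09 in WT Ang II. Replicate 1 of WT Ang II was therefore the lowest of its group, and it was so in 48 of the 49 genes, yet it stayed above all sham libraries. In miR-214-/- sham the mean was 4.92, 5.31 and 5.30, and in miR-214-/- Ang II it was 5.87, 5.06 and 5.11. The last group held 1 library near the WT Ang II level and 2 libraries within the range of miR-214-/- sham. As group means ± SD (n = 3), WT sham stood at 4.81 ± 0.13 and WT Ang II at 5.94 ± 0.30. The miR-214-/- groups stood at 5.18 ± 0.22 for sham and 5.35 ± 0.46 for Ang II. That order of group means, with WT sham lowest, then miR-214-/- sham, miR-214-/- Ang II and WT Ang II, was found in 39 of the 49 genes taken singly. Without replicate 1 of miR-214-/- Ang II, a choice made after the data were seen, it was found in 9. The values of miR-214-/- sham and miR-214-/- Ang II overlapped within their spread.

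**Figure D1:**
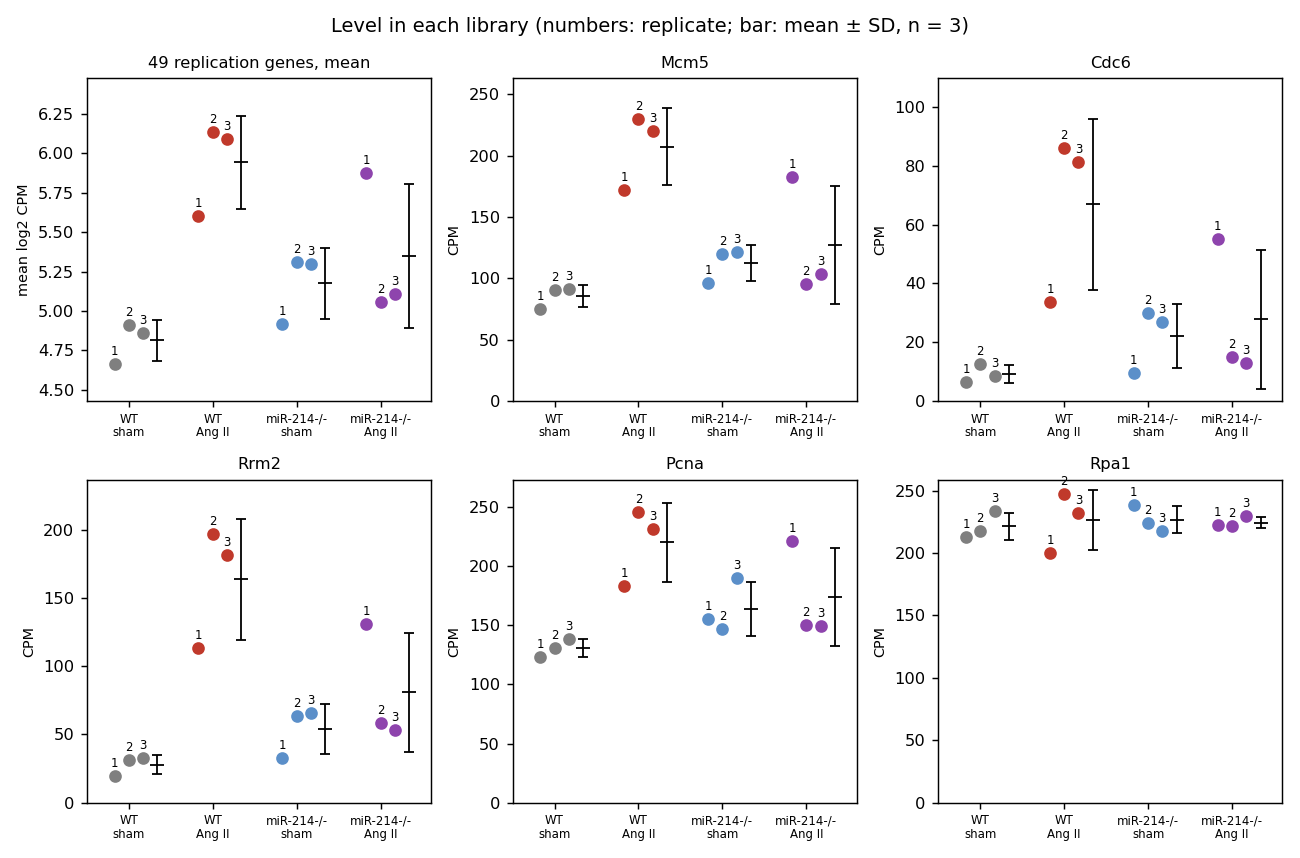
Points show each library, numbered by replicate, for the mean log2 CPM of the 49 replication genes (upper left) and for the CPM of Mcm5, Cdc6, Rrm2, Pcna and Rpa1, with bars for the group mean ± SD (n = 3). WT Ang II libraries lie above WT sham libraries in every panel except Rpa1, and in miR-214-/- Ang II replicate 1 lies above replicates 2 and 3 in every panel except Rpa1.

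Origin recognition and licensing genes were called higher in WT Ang II for 8 of 12 members, with a median log2 fold change of 1.24. Mcm5 (ENSMUSG00000005410, chr8:75109569-75128439, plus strand) encodes a subunit of the helicase ring. It was at 75.2, 90.2 and 91.3 CPM in WT sham and at 172, 230.2 and 220 CPM in WT Ang II. The groups were well apart, with a log2 fold change of 1.30 ± 0.13 (SE, edgeR adjusted p = 0.00228). Mcm2, another subunit of the ring, was at 65, 80.2 and 87.3 CPM in WT sham and 152, 210.2 and 208 CPM in WT Ang II. Its log2 fold change was 1.31 ± 0.16 (SE, edgeR adjusted p = 0.00379), and replicate 1 was the lowest library of each group. The 6 subunits Mcm2 to Mcm7, which form the ring in equal numbers, had log2 fold changes between 0.81 (Mcm4) and 1.46 (Mcm6), and Mcm4 was the one subunit not called.

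The loading factors spread more widely than the ring they load. Cdc6 (ENSMUSG00000017499, chr11:98907801-98923940, plus strand), an ATPase that opens the way for the ring, had the largest log2 fold change of all 49 genes. It was at 6.59, 12.6 and 8.43 CPM in WT sham and at 33.5, 86.04 and 81.1 CPM in WT Ang II. Replicate 1 of WT Ang II was less than the other libraries of its group and still above all sham libraries, and the log2 fold change was 2.88 ± 0.41 (SE, edgeR adjusted p = 0.00671), a 7.35-fold difference. Cdt1, which brings the ring to the origin, was at 41.6, 49.9 and 48.2 CPM in WT sham and 62.1, 95.5 and 94.3 CPM in WT Ang II. With a log2 fold change of 0.87 ± 0.17 (SE) it passed the adjusted p (edgeR, 0.0170) and stayed under the fold limit. Gmnn encodes geminin, the inhibitor of CDT1 that keeps origins from being loaded again in the same cycle. It was at 10.6, 12.3 and 10.6 CPM in WT sham and 26.3, 38.8 and 35.6 CPM in WT Ang II, with a log2 fold change of 1.60 ± 0.16 (SE, edgeR adjusted p = 0.00256).

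Per kilobase of exon, Cdt1 stood over Gmnn by a ratio of 1.82, 1.89 and 2.12 in the WT sham libraries and 1.10, 1.15 and 1.24 in the WT Ang II libraries. The ratio was thus lower in 3 of 3 WT Ang II libraries, with a log2 difference of -0.74 (exact permutation test, two-sided, p = 0.1, the smallest that 3 against 3 allows). In miR-214-/- sham it was 2.09, 1.68 and 1.70, and in miR-214-/- Ang II 1.15, 1.57 and 1.47. These groups did not overlap either (log2 difference -0.39, exact permutation p = 0.1), and replicate 1 of miR-214-/- Ang II was the lowest of the group. Without that library the log2 difference was -0.26.

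Origin recognition genes were unequal. Orc1, whose product is the subunit that comes and goes with the cell cycle, was called higher with a log2 fold change of 2.30 ± 0.36 (SE). Orc2, a core subunit, was at 44.6, 44.7 and 40.8 CPM in WT sham and 46.4, 75.7 and 72.3 CPM in WT Ang II. Its libraries did not overlap, but replicate 1 of WT Ang II was close to the sham libraries. The log2 fold change of 0.60 ± 0.18 (SE) missed the threshold (edgeR adjusted p = 0.0564). The exons of Orc2 overlap those of Nif3l1 on the other strand over 1150 bases. The other subunit genes gave log2 fold changes of 0.76 ± 0.22 (SE) for Orc6, 0.41 ± 0.18 (SE) for Orc5, 0.07 ± 0.11 (SE) for Orc3 and -0.00 ± 0.10 (SE) for Orc4, none of them past an adjusted p of 0.05 in edgeR. Orc3, Orc4 and Orc5 are not among the 49 genes.

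**Figure D2:**
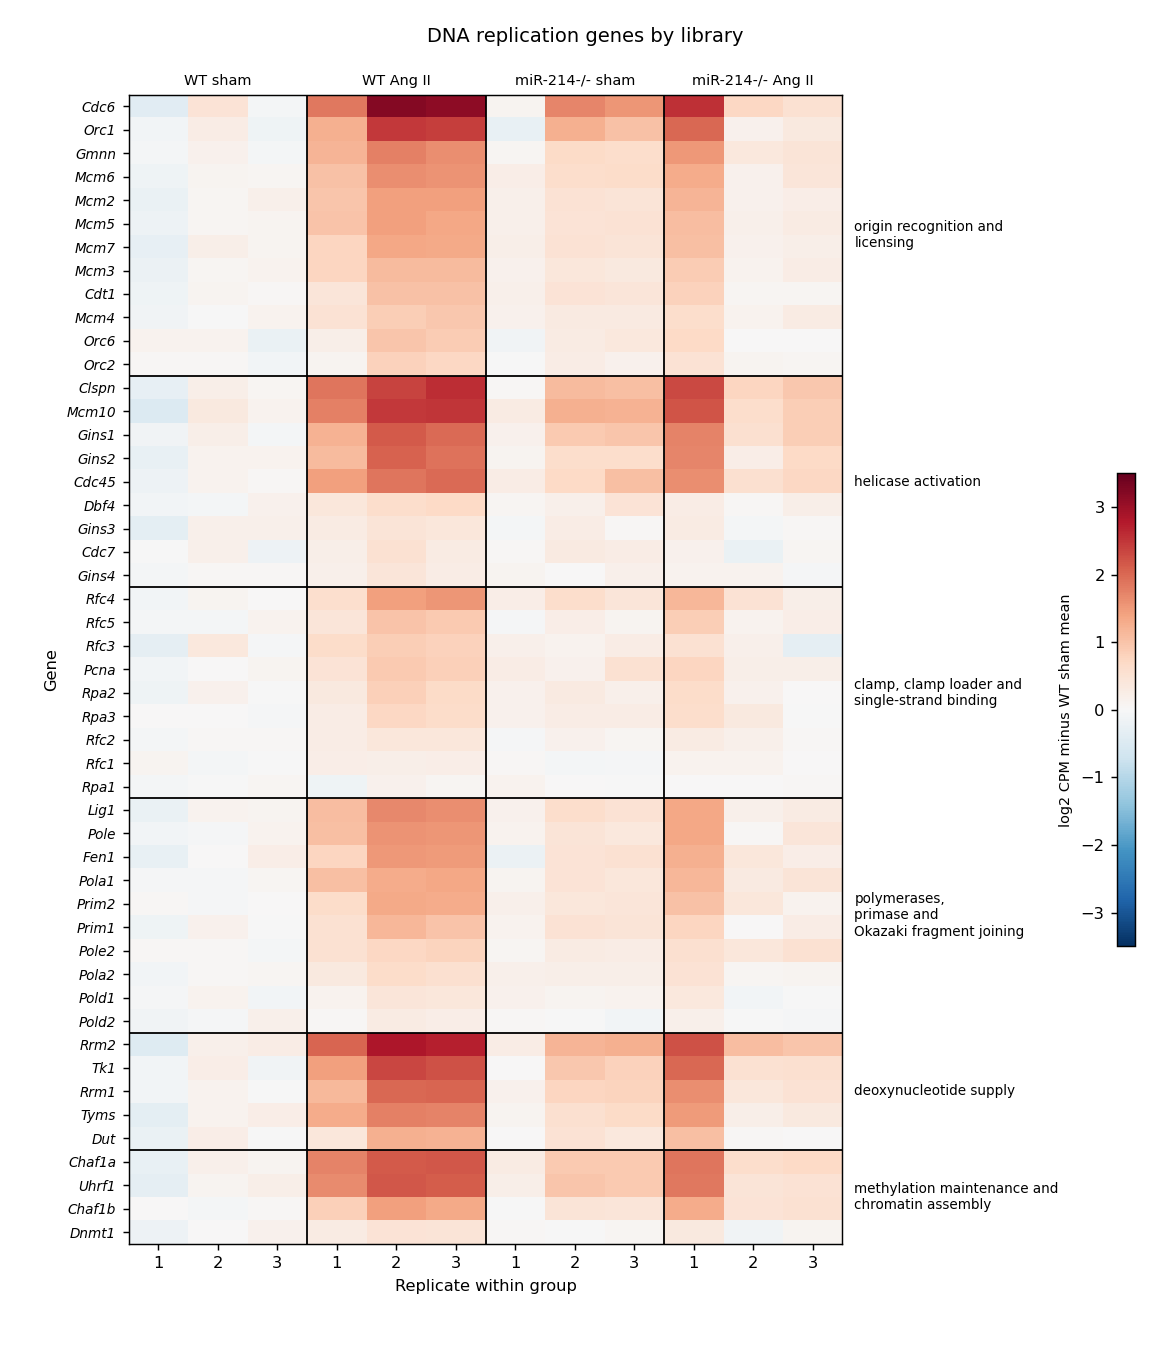
Each cell shows the log2 CPM of 1 gene in 1 library minus the mean of that gene in WT sham (colour scale in log2 units), with libraries in columns by group and replicate and genes in rows by role, sorted by the WT response. WT Ang II and replicate 1 of miR-214-/- Ang II are red through most rows, and the largest value belongs to Cdc6 in WT Ang II.

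Helicase activation genes were called higher in WT Ang II for 5 of 9 members, with a median log2 fold change of 1.86. Clspn, the gene of claspin, a mediator between the fork and its checkpoint, was at 8.03, 11.6 and 10.5 CPM in WT sham and 37.4, 53.5 and 62.4 CPM in WT Ang II. It had the largest log2 fold change of the group at 2.37 ± 0.23 (SE, edgeR adjusted p = 0.00205). Cdc45, which with GINS turns the ring into the active helicase, was at 7.07, 8.97 and 8.43 CPM in WT sham and 22.9, 31.1 and 33.3 CPM in WT Ang II. All 3 Ang II libraries were clearly above the sham libraries, with a log2 fold change of 1.86 ± 0.18 (SE, edgeR adjusted p = 0.00218). Mcm10, which helps the start of unwinding, was called as well, at 2.34 ± 0.28 (SE).

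The 4 GINS subunits split into pairs. Gins1 and Gins2 were called higher with log2 fold changes of 2.01 ± 0.28 (SE) and 1.89 ± 0.29 (SE). Gins4 was at 27.9, 30.4 and 30.3 CPM in WT sham and 33.7, 39.8 and 35.7 CPM in WT Ang II, the smallest log2 fold change of the role at 0.32 ± 0.0916 (SE, edgeR adjusted p = 0.04996). Gins3 had a log2 fold change of 0.40 ± 0.17 (SE) and did not pass (edgeR adjusted p = 0.147). The 4 subunits take equal parts in the complex, and the levels of their RNA differed: in WT sham Gins4 was at 21.9 CPM per kb of exon, Gins3 at 4.11, Gins1 at 2.18 and Gins2 at 0.879. In WT Ang II these levels were 26.98, 5.33, 8.65 and 3.22 CPM per kb. The exons of Gins2 overlap those of Gse1 on the other strand over 2758 bases, so its level is less certain. The kinase pair Dbf4 and Cdc7, which sets off each origin, had log2 fold changes of 0.60 ± 0.11 (SE) and 0.36 ± 0.13 (SE), and of these Dbf4 passed an adjusted p of 0.05.

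The clamp, its loader and the single-strand binding protein had the lowest median of the 6 roles. Of 9 members 1 was called (Rfc4), although 8 of 9 were higher at an adjusted p under 0.05, and the median log2 fold change was 0.65. Pcna (ENSMUSG00000027342, chr2:132249162-132253314, minus strand), the sliding clamp, was at 123, 131 and 139 CPM in WT sham and 183, 246 and 231 CPM in WT Ang II. The groups did not overlap, and the log2 fold change was 0.77 ± 0.11 (SE, edgeR adjusted p = 0.00733). Per kb of exon it was the most abundant of the 49 genes in each group, with 54.6 CPM per kb for WT sham and 91.8 for WT Ang II.

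Of the clamp loader, Rfc4, a small subunit, was at 11.04, 12.7 and 11.98 CPM in WT sham and 18.1, 32.8 and 35.9 CPM in WT Ang II. Replicate 1 of WT Ang II was again the lowest of its group, and the log2 fold change was 1.30 ± 0.25 (SE, edgeR adjusted p = 0.0167). Rfc1, the large subunit, was at 98.3, 87.9 and 92.7 CPM in WT sham and 109, 106 and 109.5 CPM in WT Ang II, a small difference with no overlap and a log2 fold change of 0.24 ± 0.0657 (SE, edgeR adjusted p = 0.0443). Rfc2, Rfc3 and Rfc5 lay between them at 0.38, 0.77 and 0.83 on the log2 scale. The call of Rfc4 was lost without replicate 1 of WT sham (edgeR adjusted p = 0.0686), without replicate 3 of WT sham (0.0618) and without replicate 3 of WT Ang II (0.0618).

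RPA coats single-stranded DNA in replication and in repair. Rpa1, its large subunit, was at 213, 218 and 234 CPM in WT sham and 199.9, 248 and 232 CPM in WT Ang II. These groups overlapped, and the log2 fold change of 0.06 ± 0.0870 (SE) was the smallest of all 49 genes (edgeR adjusted p = 0.686, 95% interval -0.15 to 0.26). Rpa3, the small subunit, was at 17.9, 17.8 and 17.3 CPM in WT sham and 21.4, 29.4 and 27.7 CPM in WT Ang II. The libraries did not overlap, with a log2 fold change of 0.59 ± 0.14 (SE, edgeR adjusted p = 0.0289).

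Polymerase, primase and fragment-joining genes were called higher in WT Ang II for 5 of 10 members, with a median log2 fold change of 1.06. Lig1, the ligase that seals the fragments, was at 39.3, 50.2 and 49.5 CPM in WT sham and 98.2, 149 and 143 CPM in WT Ang II. It led the role with a log2 fold change of 1.51 ± 0.17 (SE, edgeR adjusted p = 0.00349). Fen1, which trims the fragments before they are sealed, was called as well at 1.36 ± 0.25 (SE), and its exons overlap those of Tmem258 and Gm10143 on the other strand over 2039 bases. Pola1, the catalytic subunit of polymerase alpha, had the smallest adjusted p of the 49 genes (0.00113 in edgeR), with a log2 fold change of 1.28 ± 0.10 (SE). Pole, the catalytic subunit of the leading-strand polymerase epsilon, was at 1.45 ± 0.15 (SE) and was called, while its partner Pole2 was at 0.73 ± 0.12 (SE) and was not.

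Polymerase delta, which extends the lagging strand and also takes part in repair, had the lowest values of the role. Pold2, an accessory subunit, was at 40.2, 42.9 and 50.05 CPM in WT sham and 45.4, 53.7 and 52.1 CPM in WT Ang II. The groups overlapped, and the log2 fold change was 0.20 ± 0.11 (SE, edgeR adjusted p = 0.210). The catalytic subunit Pold1 had a log2 fold change of 0.34 ± 0.10 (SE) and did not pass either (edgeR adjusted p = 0.0620).

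Deoxynucleotide supply was the one role in which all 5 members were called higher, with a median log2 fold change of 1.80. Rrm2 (ENSMUSG00000020649, chr12:24708241-24714146, plus strand), the small subunit of ribonucleotide reductase that is made in S phase, was at 19.7, 31.1 and 32.9 CPM in WT sham and 113, 197 and 181 CPM in WT Ang II. This was a 5.95-fold difference, with a log2 fold change of 2.57 ± 0.26 (SE, edgeR adjusted p = 0.00256). Its partner Rrm1 had a log2 fold change of 1.80 ± 0.24 (SE). Tk1, the thymidine kinase of dividing cells, was at 11.9, 15.04 and 11.8 CPM in WT sham and 35.5, 66.9 and 62.5 CPM in WT Ang II. The log2 fold change was 2.11 ± 0.25 (SE, edgeR adjusted p = 0.00373), with no overlap of the libraries. Tyms, which makes thymidylate, was at 8.90, 12.3 and 13.2 CPM in WT sham and 28.7, 39.5 and 38.9 CPM in WT Ang II. Its log2 fold change was 1.66 ± 0.19 (SE, edgeR adjusted p = 0.00361). Dut, which removes dUTP, had the smallest change of the role, at 39.3, 54.01 and 45.4 CPM in WT sham and 60.9, 110.1 and 107 CPM in WT Ang II. The log2 fold change of 1.02 ± 0.23 (SE) was close to the limit (edgeR adjusted p = 0.0268), and the call was lost without replicate 1 of WT sham, replicate 3 of WT sham, replicate 2 of WT Ang II or replicate 3 of WT Ang II, at edgeR adjusted p values of 0.0942, 0.0877, 0.0673 and 0.0949.

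Genes that copy methylation and chromatin were called higher for 3 of 4 members, with a median log2 fold change of 1.65. Chaf1a, the large subunit of the CAF-1 histone chaperone, was at 8.94, 12.1 and 11.4 CPM in WT sham and 37.1, 49.1 and 50.2 CPM in WT Ang II. The log2 fold change was 2.09 ± 0.17 (SE, edgeR adjusted p = 0.00116), and its exons overlap those of Ubxn6 on the other strand over 4648 bases. Uhrf1 (ENSMUSG00000001228, chr17:56303321-56323486, plus strand), which finds hemimethylated DNA behind the fork, was at 27.1, 36.4 and 38.7 CPM in WT sham and 107, 154 and 148 CPM in WT Ang II. All Ang II libraries were far above the sham libraries, with a log2 fold change of 2.02 ± 0.18 (SE, edgeR adjusted p = 0.00159). Dnmt1, the methyltransferase that UHRF1 recruits, was at 216, 249 and 273 CPM in WT sham and 301, 342 and 333 CPM in WT Ang II. Its log2 fold change of 0.43 ± 0.10 (SE) passed the adjusted p (edgeR, 0.0273) without reaching the fold limit.

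**Figure D3:**
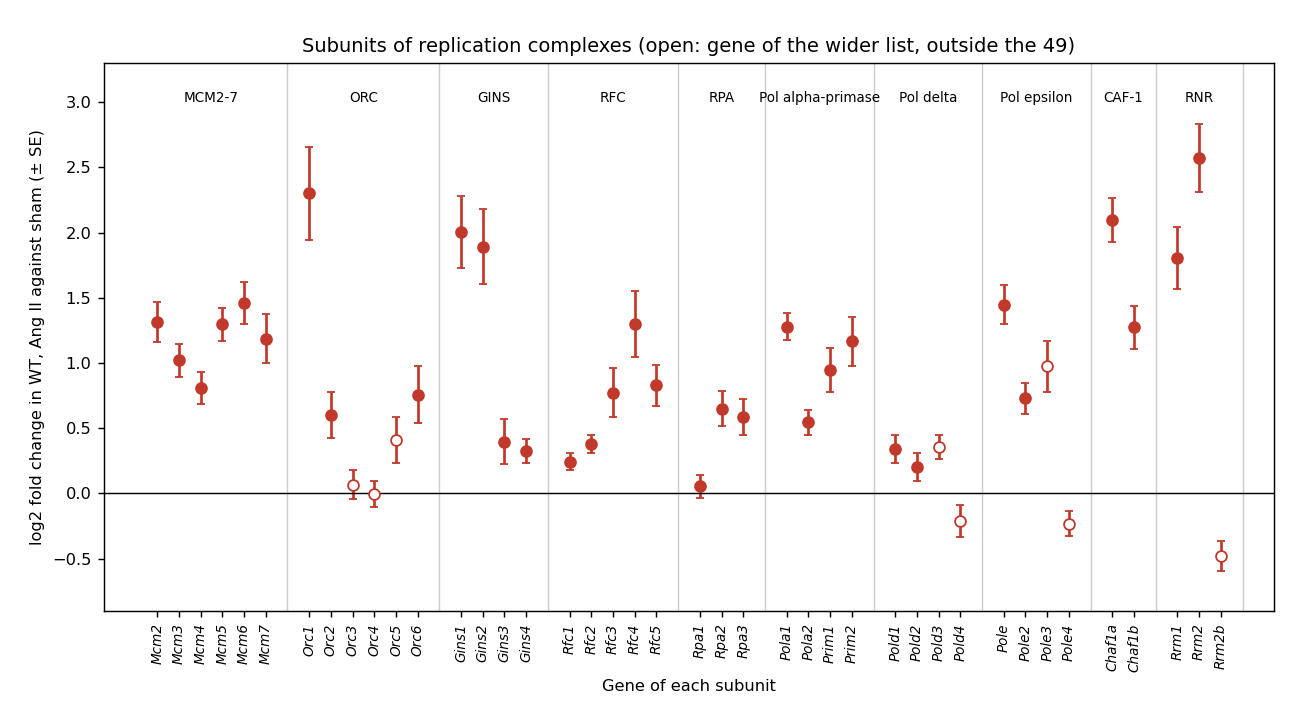
Points give the edgeR log2 fold change of Ang II against sham in WT ± SE for each subunit gene of 10 complexes, with open points for genes outside the 49. The MCM ring is narrow, from 0.81 to 1.46, whereas the origin recognition complex runs from -0.00 (Orc4) to 2.30 (Orc1) and ribonucleotide reductase from -0.48 (Rrm2b) to 2.57 (Rrm2).

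Members that were scarce without Ang II tended to have the larger log2 fold changes. To keep the level apart from the libraries of the fold change, levels were taken from miR-214-/- sham, where they ran from 1.25 (Gins2) to 68.3 CPM per kb of exon (Pcna). Over the 49 genes the WT log2 fold change and this level had a Spearman rho of -0.49 and, with log2 levels, a Pearson r of -0.51, a description across genes of the same libraries that are not independent. Of the 16 scarcest members 15 were called in WT, and of the 16 most abundant 6.

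The wider replication machinery showed the same direction to a lesser degree. Of 40 other replication genes, all of them tested, 12 were called higher in WT and none lower, 22 passed an adjusted p of 0.05 as higher and 1 as lower, and the median log2 fold change was 0.56. The largest were Dna2, a nuclease and helicase of fragment processing (2.04 ± 0.17 SE), Pclaf, a small protein bound to the clamp (2.04 ± 0.12 SE), and Ticrr, which acts with TOPBP1 in helicase activation (1.98 ± 0.17 SE). The lowest were Rrm2b (-0.48 ± 0.12 SE, edgeR adjusted p = 0.0324), the reductase subunit of resting cells under p53, then Pole4 (-0.23 ± 0.0944 SE) and Pold4 (-0.21 ± 0.12 SE), small polymerase subunits that did not pass. Rrm2b was at 59.2, 48.1 and 49.5 CPM in WT sham and 40.6, 33.95 and 36.1 CPM in WT Ang II, so it lay lower in all Ang II libraries while Rrm2 lay higher.

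In miR-214-/- mice no member was called for Ang II against sham, where 0% of the 15937 genes were called higher. DESeq2 called 0 members as well. At an unadjusted p under 0.05 edgeR found 1 member higher (Pole2), against 5.82% of all genes, and the libraries were apart in 2 members (Pole2 and Chaf1b), against 8.86% of all genes. The median log2 fold change was 0.21, beside 0.03 over all genes, and 42 were positive and 7 negative. The largest was 0.73 ± 0.47 (SE) for Clspn (95% interval -0.38 to 1.85) and the lowest -0.20 ± 0.13 (SE) for Cdc7. The intervals were wide: that of Cdc6 ran from -1.18 to 1.86 around 0.34, and that of Rrm2 from -0.36 to 1.54 around 0.59.

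In this group 1 library stood apart. Mcm5 was at 95.8, 120 and 121 CPM in miR-214-/- sham and at 182, 95.7 and 104 CPM in miR-214-/- Ang II. Replicate 1 of the latter stood inside the range of WT Ang II, while replicates 2 and 3 stood near the lower of the sham libraries. Cdc6 was at 9.51, 30.01 and 26.7 CPM in miR-214-/- sham and 55.1, 15.01 and 13.01 CPM in miR-214-/- Ang II. Rrm2 was at 33.03, 63.4 and 65.8 CPM in miR-214-/- sham and 131, 58.1 and 53.6 CPM in miR-214-/- Ang II. For both genes replicate 1 was again above every miR-214-/- sham library, as it was in 45 of the 49 genes. It lay above replicate 1 of WT Ang II in 43 genes and below the other 2 WT Ang II libraries in all 49. Replicates 2 and 3 both lay at or below the highest miR-214-/- sham library in 42 genes, and below every WT Ang II library in 47. Without replicate 1 the median log2 fold change in miR-214-/- was -0.10, with 10 members positive and 39 negative, so the sign of the median rested on that library. Without replicate 2 the median was 0.33.

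**Figure D4:**
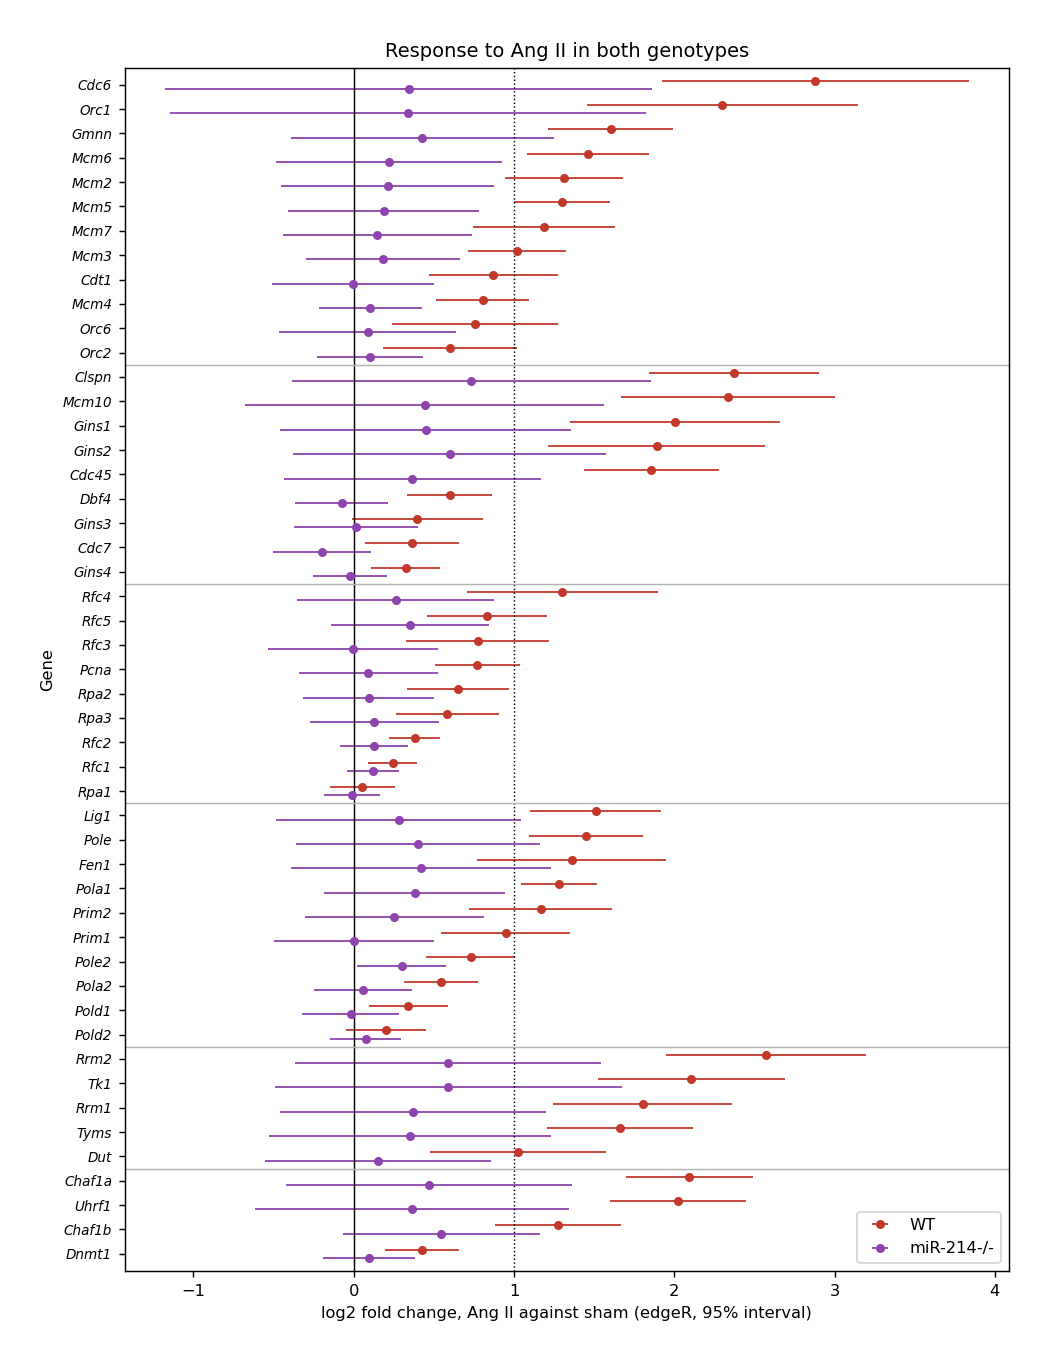
Points give the edgeR log2 fold change of Ang II against sham with its 95% interval for each of the 49 genes in WT (red) and in miR-214-/- (purple), by role, with a dotted line at a log2 fold change of 1. The WT value is the higher in all 49 genes, and the miR-214-/- interval reaches below 0 in all but Pole2.

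Without Ang II no member was called between miR-214-/- sham and WT sham, where 0% of the 15913 genes were called higher, and DESeq2 called 0 members too. The smallest adjusted p was 0.701 in edgeR. At an unadjusted p under 0.05 edgeR placed 26 members higher in miR-214-/- sham, against 4.26% of all genes, and in 20 members all miR-214-/- libraries lay above all WT libraries, against 5.39% of all genes. Markers of other cells moved with this comparison, since 12 of 21 red-cell precursor genes (median log2 difference 1.53, with 2 others lower) and 9 of 16 granulocyte genes (median 1.41) were higher and 4 of 10 B cell genes (median -1.35) lower at the same unadjusted p, with 0 called by edgeR, and their part was not tested. For the replication genes the median log2 difference was 0.32, beside -0.01 over all genes, with 47 members positive and 2 negative (Rfc1 and Pold2). Cdc6 had the largest, 1.26 ± 0.43 (SE), and its replicate 1 in miR-214-/- sham (9.51 CPM) lay within the WT sham range. Mcm6, a subunit of the ring, had the smallest unadjusted p of 0.00347, at 73.9, 86.9 and 85.98 CPM in WT sham and 96.05, 125 and 129 CPM in miR-214-/- sham, with no overlap. Replicate 1 of miR-214-/- sham was the lowest of its group in 41 genes. Without it the median was 0.44, and the smallest adjusted p of a member was 0.0352 in edgeR, with 0 members past both limits of a call.

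With Ang II the direction between genotypes was the opposite. All 49 log2 differences of miR-214-/- Ang II against WT Ang II were negative, with a median of -0.55, beside 0.00 over all genes, and a range of -1.26 (Cdc6) to -0.01 (Rpa1). No member was called, where 0% of the 16215 genes were called lower, and DESeq2 also called 0 members. The smallest adjusted p was 0.569 in edgeR, and at an unadjusted p under 0.05 there were 7 members lower, against 4.16% of all genes. In 6 members (Gins3, Gins4, Dbf4, Cdc7, Rfc1 and Rfc3) all miR-214-/- libraries lay below all WT libraries, against 5.94% of all genes. Replicate 1 of miR-214-/- Ang II lay above replicate 1 of WT Ang II in the other 43. Without that library the median was -0.86 and the smallest adjusted p 0.0546 in edgeR, so that 0 members were called there as well. Between the same groups 4 of 21 red-cell precursor genes were lower (median -1.28) and 8 of 15 T cell genes higher (median 0.31) at an unadjusted p under 0.05, with 0 called by edgeR, and their part was not tested.

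The test of the difference itself compared the Ang II response of miR-214-/- mice with that of WT mice over all 12 libraries. The interaction was negative for all 49 genes, with a median of -0.88, beside 0.01 over all genes, so the estimated log2 response was smaller in miR-214-/- for each of them. In edgeR no member passed an adjusted p of 0.05 (the smallest was 0.213), where 0.00596% of the 16770 genes passed as lower, and 35 members had an unadjusted p under 0.05 as lower, against 8.26% of all genes. The interaction was -2.53 ± 0.85 (SE) for Cdc6, -1.97 ± 0.53 (SE) for Rrm2, -1.61 ± 0.45 (SE) for Chaf1a, -1.10 ± 0.31 (SE) for Mcm5 and -0.05 ± 0.12 (SE) for Rpa1. DESeq2 called 12 members, against 1.47% of the 30175 genes it tested, and the smallest adjusted p was 0.0138 (Chaf1a). That is a wider set than the 16770 genes of edgeR, so the shares of the 2 tools have unlike bases. Those 12 were Mcm2, Mcm4, Mcm5, Mcm6, Cdc45, Gins1, Dbf4, Pola1, Prim1, Lig1, Rrm2 and Chaf1a. Without replicate 1 of miR-214-/- Ang II edgeR called 31 members, against 5.35% of all genes, with a median interaction of -1.20 and a smallest adjusted p of 0.0122. The call of an interaction thus depended on the tool and on 1 library. With all libraries, marker lists moved with the interaction as well, and edgeR called 0 of their genes. At an unadjusted p under 0.05, 15 of 21 red-cell precursor genes (median -2.93), 8 of 16 granulocyte genes (median -1.77) and 6 of 8 basophil and mast cell genes (median -1.36) were lower, and 9 of 15 T cell genes (median 0.49) were higher. Their part in the result was not tested.

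Markers of other blood cells moved with Ang II as well. Of 22 red-cell precursor genes listed 21 were measured, and of these, all above 0 in every library, 15 were called higher in WT Ang II (median log2 fold change 3.37). Their sum ran from 583 to 660.2 CPM in WT sham and 2733 to 6457 CPM in WT Ang II, and for miR-214-/- mice 413 to 1277 CPM without and 737 to 5046 CPM with Ang II. The sum did not follow the replication genes library by library. In miR-214-/- Ang II it was 1950.0, 5046 and 737 CPM, with the peak in replicate 2, where the replication genes were the lowest of the group, and without replicate 2 the range was 737 to 1950.0 CPM. Single genes of the list, picked after their values were seen, differed in this. Klf1, a transcription factor of early red-cell precursors, was at 8.29, 23.7 and 10.98 CPM in WT sham and 47.1, 172 and 137 in WT Ang II, and for miR-214-/- mice 12.3, 58.6 and 51.2 without and 97.6, 21.4 and 11.6 with Ang II. Replicate 1 was the lowest of WT Ang II and of miR-214-/- sham and the highest of miR-214-/- Ang II, as for the replication genes. Hbb-bs, an adult globin, was at 2147, 572 and 189.7 CPM in WT Ang II and 113, 1977 and 228 in miR-214-/- Ang II, a different order. The part of red-cell precursors in the replication result was not tested.

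Other cell lists were checked in the same way. All 16 granulocyte genes were called higher in WT Ang II, and their sum ran from 228 to 303 CPM in WT sham and 1236 to 3623 in WT Ang II, and for miR-214-/- mice 297 to 1124 without and 697 to 3240 with Ang II. Without replicate 2 the last range was 697 to 1341 CPM. Replicate 1 of WT Ang II was the highest of its group for the granulocyte sum and the lowest for replication genes. Single granulocyte genes, picked after their values were seen, differed. Mpo was at 418, 254 and 430 CPM in WT Ang II and 472, 139 and 249 in miR-214-/- Ang II. In the latter group replicate 1 was the highest for Mpo, Elane, Prtn3, Ctsg and Ms4a3, as for the replication genes. For the other genes of the list replicate 2 was the highest there. In WT Ang II the lowest library for Mpo, Elane, Prtn3, Ctsg and Ms4a3 was replicate 2, and for the mean of the replication genes replicate 1. Ngp was at 694, 154 and 198 CPM in WT Ang II and 129, 655 and 65 in miR-214-/- Ang II, a different order. Of 8 basophil and mast cell genes 7 were called, with sums of 57.2 to 107 CPM in WT sham and 221 to 472 in WT Ang II, and for miR-214-/- mice 90.7 to 221 without and 154 to 296 with Ang II. Of 10 megakaryocyte genes 4 were called, with sums of 26.5 to 47.7 CPM, 65.6 to 84.9, 42.6 to 62.9 and 68.7 to 81.3 in the same order of groups. None of 8 plasma cell genes was called by edgeR (5 with an unadjusted p under 0.05), but Jchain, the joining chain of secreted antibodies and also picked after its values were seen, was at 177, 631 and 62.98 CPM in WT sham and 378, 1293 and 1543 in WT Ang II, and for miR-214-/- mice 106, 756 and 749 without and 1001, 211 and 111 with Ang II. The plasma cell sum ran from 167 to 807 CPM in WT sham and 558 to 1896 in WT Ang II, and for miR-214-/- mice 223 to 985 without and 232 to 1242 with Ang II. As with the replication genes, replicate 1 was the lowest of WT Ang II and the highest of miR-214-/- Ang II. In WT Ang II against WT sham no B cell or macrophage gene was called by edgeR, nor had any an unadjusted p under 0.05. Of 6 NK cell genes none was called and 2 were lower at that p. In the same comparison 19.8% of all genes were higher and 15.8% lower at that p. Of 8 dendritic cell genes 1 was called higher. The part of these cells was not tested.

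T cell genes went the other way. None of the 15 was called in WT, but 12 were lower at an adjusted and 15 at an unadjusted p under 0.05 in edgeR, and all 15 had a negative log2 fold change (median -0.49). Replicate 1 of miR-214-/- Ang II, the library with the most replication RNA of its group, had a T cell sum of 4656 CPM, inside the WT Ang II range, against 6248 and 6156 CPM in replicates 2 and 3. Of 16 T cell activation genes none was called in WT by edgeR, and 3 were higher and 1 lower at an unadjusted p under 0.05. Of all genes 19.8% were higher and 15.8% lower in WT at that p. Among the activation genes 1 passed an adjusted p of 0.05 (Cd44, an adhesion receptor, log2 fold change 0.71, edgeR adjusted p = 0.00762). Their sum was 756 to 946 CPM in WT sham and 816 to 939.8 in WT Ang II, and these ranges overlapped. Of the 16 log2 fold changes 9 were positive and 7 negative. Single genes of the list, picked after their values were seen, differed. Il2ra, the high-affinity receptor chain of activated T cells, was at 50.4, 42.5 and 47.3 CPM in WT sham and 42.3, 36.5 and 43.5 CPM in WT Ang II. Myc was at 100.4, 113 and 114 and 104, 117 and 131 CPM in the same order of groups. Pdcd1 was at 29.1, 22.7 and 29.9 CPM in WT sham and 34.3, 61.9 and 34.4 CPM in WT Ang II, with no overlap. The part of activated T cells in the replication result was not tested.

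**Figure D5:**
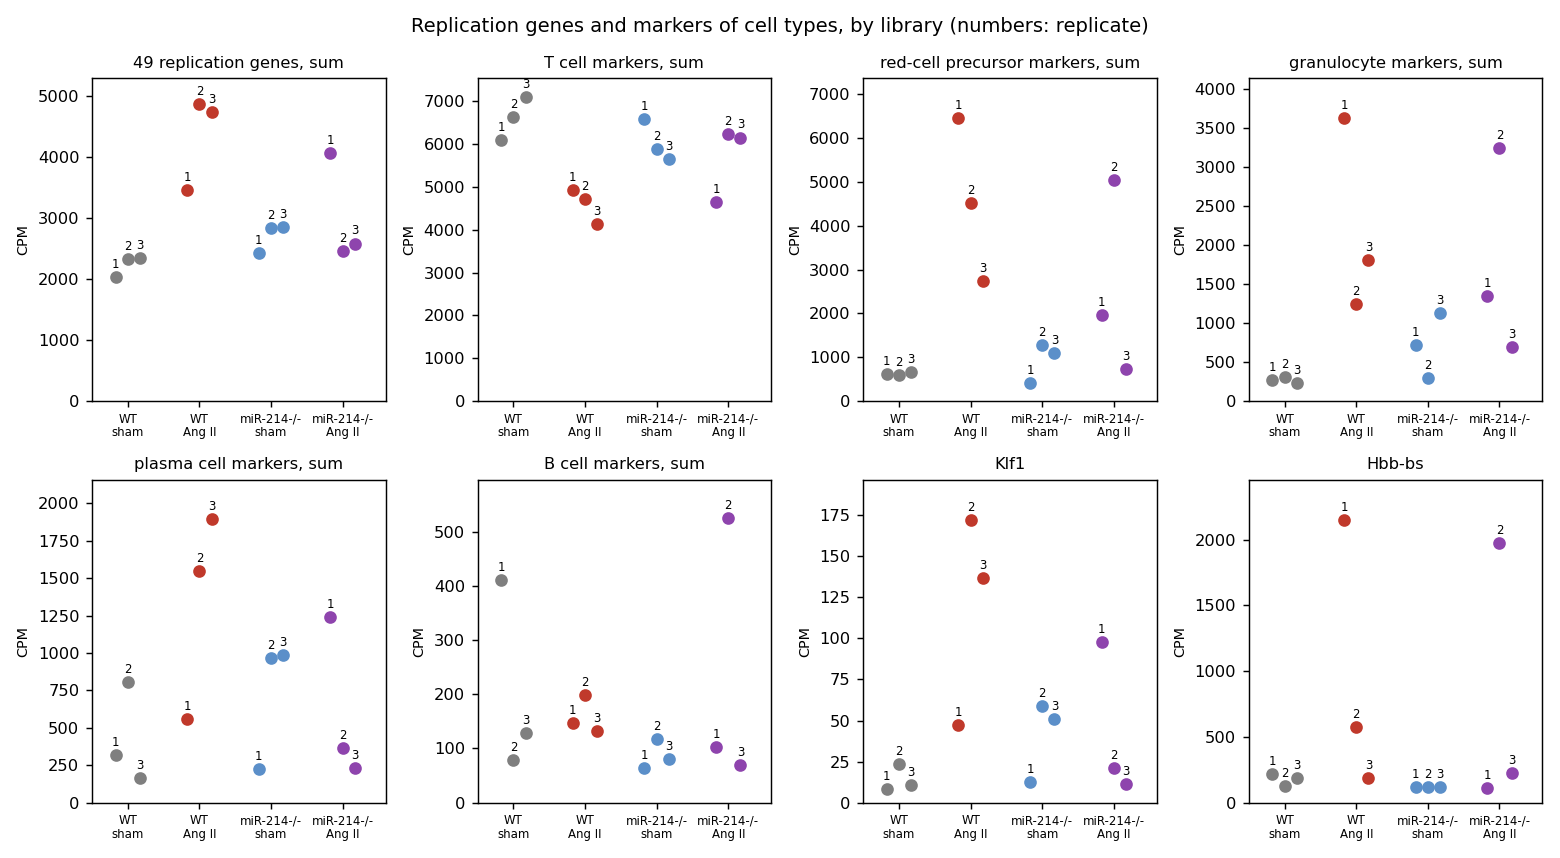
Points show each library, numbered by replicate, for the summed CPM of the 49 replication genes and of 5 marker lists, and for the CPM of Klf1 and Hbb-bs. Replicate 1 of miR-214-/- Ang II is the highest of its group for the replication genes, plasma cell genes and Klf1, and the lowest for T cell genes, while replicate 2 is the highest for the red-cell, granulocyte and B cell sums and Hbb-bs.

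Since the members moved together, their promoters were read. Windows from 250 bases before to 50 bases after annotated starts were given by RefSeq on GRCm38.p6 for 41 of the 49 genes, and none was at hand for Gins4, Prim2, Gmnn, Gins2, Pole, Gins1, Mcm4 or Rfc2. The letters TTTCCCGC, TTTGGCGC, TTTCGCGC or TTTGCCGC, 4 forms of the E2F site, were found on either strand in 16 of the 41 genes (39%), against 2.6% of the 27025 genes with a window. By window, since genes can have several, the shares were 31.4% of 51 and 2.26% of 32851. The 27025 genes were not limited to those past the filter on low counts, which all members passed. Shares among the filtered genes alone were not taken. CCAAT, the letters bound by NF-Y, was found in 63.4% of the members and 41.1% of all genes. The short cell cycle words TTTGAA or TTTAAA were found in 31.7% and 30.6%, in the same order. These are matches of letters and not shown sites, and the words can overlap one another. By role they stood in 7 of 10 licensing genes with a window, 2 of 6 helicase activation genes, 1 of 8 clamp, loader and RPA genes, 4 of 8 polymerase and joining genes, 0 of 5 deoxynucleotide genes and 2 of 4 methylation and chromatin genes. The 16 genes with an E2F word had WT log2 fold changes of 0.34 to 2.88 (median 1.23, 10 called) and the 25 without one 0.06 to 2.57 (median 0.95, 12 called), so the ranges overlapped. Stretches of 30 bases around such words follow for 6 of the members described above, from the strongest response of licensing to the weak one of Dnmt1, with the word in capitals and all letters 5′ to 3′ on the strand of the gene.
Cdc6 (chr11:98908002-98908031, plus strand): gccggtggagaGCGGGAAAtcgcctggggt
Mcm5 (chr8:75109345-75109374, plus strand): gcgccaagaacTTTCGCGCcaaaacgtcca
Clspn (chr4:126556990-126557019, plus strand): accgcgtctggGCGCGAAAgctcgaacttc
Uhrf1 (chr17:56304117-56304146, plus strand): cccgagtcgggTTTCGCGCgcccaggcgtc
Lig1 (chr7:13278841-13278870, plus strand): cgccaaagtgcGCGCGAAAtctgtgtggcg
Dnmt1 (chr9:20952574-20952603, minus strand): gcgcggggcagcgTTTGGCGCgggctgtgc
In Cdc6, Clspn and Lig1 the word stands as its reverse complement. Of these 6 genes, Clspn, Uhrf1, Lig1, Mcm5 and Dnmt1 hold the same word, TTTCGCGC, with WT log2 fold changes of 2.37, 2.02, 1.51, 1.30 and 0.43. In Dnmt1 it stands outside the stretch shown, which marks TTTGGCGC. Among the other members it occurs in Orc1, Mcm6, Mcm7 and Rfc3, at 2.30, 1.46, 1.19 and 0.77. Rrm2, Tk1 and Tyms, all called with large changes, hold none of these 4 words in their windows, which says only that these letters are absent there.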

How the data were processed

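RNASeq was performed by the authors on poly(A) RNA of splenic T cells. Reads were trimmed with Trimmomatic, aligned with STAR and counted per gene with featureCounts of Subread 1.5.2 (the submitters' processing notes), and the deposited values are raw counts per Ensembl gene and library. The annotation release and strand setting used for counting are not given in the sources used here. Names, positions and exon lengths were taken from GENCODE M21 (GRCm38). By this annotation the exons of 14 members overlap those of another gene on the other strand. Their levels are less certain, since the strand setting is not known. The members and lists were chosen with earlier results of these data known. Counts were filtered with filterByExpr, scaled by TMM and tested with edgeR 4.0.16 (glmQLFit, glmQLFTest) in R 4.3.3, with one fit per pair of groups and one over all 12 libraries for the interaction. Calls needed a log2 fold change beyond 1 and a p under 0.05 after Benjamini-Hochberg adjustment over all genes, and for the interaction the p alone. The fits were tested on simulated data. Alternatives were DESeq2 1.42.0, other scalings and filters, a replicate block and leaving out each library. Members given in full were the largest and smallest WT changes of each role and examples listed by name. Library totals were 21126874 to 29605988 counts, and each group held 3 mice. No libraries were left out, and no replicate pair agreed within sampling noise.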

Additional observations from a re-analysis of the deposited data

How the results depend on the processing

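In WT, 27 members were called, and 42 at an adjusted p alone. Leaving out 1 library at a time gave 23 to 29 calls and medians of 1.05 to 1.35. Rpa1 turned to -0.015 without replicate 2 of WT Ang II (edgeR adjusted p = 0.932). Of the other values of named members under alternatives, 312 kept direction and side of the threshold, 8 lost the call (Dut and Rfc4) and 1 gained it (Cdt1, 1.05 without replicate 1 of WT Ang II). For the interaction edgeR called 0 members and DESeq2 12, and leaving out 1 library gave 0 to 31, the most without replicate 1 of miR-214-/- Ang II, with medians of -1.20 to -0.73. The medians then ran from -0.10 to 0.33 for Ang II in miR-214-/-, 0.28 to 0.44 between genotypes in sham and -0.86 to -0.40 with Ang II, with 0 calls in each. Over all genes DESeq2 called 51 for Ang II in miR-214-/- (edgeR 0), 45 between genotypes in sham (edgeR 3), 21 with Ang II (edgeR 0) and 444 for the interaction (edgeR 1). The causes were not tested.

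With the replicate number as a block, 26 members were called in WT and 0 in the other comparisons, with medians of 1.14, 0.13, 0.32, -0.59 and -0.86. Same-numbered libraries had correlations of -0.62 to 0.25. With 3 libraries in each group these cannot show whether the numbers pair mice, and no pairing is stated. Replicate 1 was the lowest of its group for 35 members in WT sham, 48 in WT Ang II and 41 in miR-214-/- sham. In miR-214-/- Ang II it was so for 0.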
